A study of Mus musculus with 2 samples.

Results

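The transcripts described here are those of 10 genes of the integrated stress response: Atf4, Atf5, Ddit3, Atf3, Trib3, Chac1, Asns, Slc7a11, Ppp1r15a and Ppp1r15b. They were examined for UPF1 binding by taking every deposited UPF1 cluster that overlapped the RefSeq locus of one of these genes (GRCm38) on the gene's strand. This gave 45 of the 123349 clusters in the list, in 8 of the 10 genes, where 9846 genes in all had a cluster on their strand. Enhanced crosslinking and immunoprecipitation (eCLIP) recovers RNA fragments crosslinked to a protein and sets them against an input library, and a cluster is a stretch of RNA where reads of the immunoprecipitate piled up. The study has 1 UPF1 immunoprecipitate and 1 input, both from cultured mouse neural progenitor cells of cortex with the genotype Upf2fl/fl. Upf2fl/fl denotes a Upf2 gene flanked by loxP sites, both libraries are named MOCK, and the labels explain neither that word nor whether a Cre was used, and give no age. Neither library has a replicate, so the spread between cultures is unknown and no p-value between conditions was computed.

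The integrated stress response starts with kinases that phosphorylate the alpha subunit of the initiation factor eIF2 when cells lack amino acids, carry misfolded proteins or meet other stresses. General translation falls, while mRNAs with upstream open reading frames, such as that of the transcription factor ATF4, are translated more. ATF4 and its partners then raise genes for amino acid supply, redox balance and, under lasting stress, cell death, and phosphatase subunits among the targets close the loop. UPF1 is the central helicase of nonsense-mediated decay (NMD), which degrades mRNAs whose translation ends early. Upstream open reading frames can expose an mRNA to this pathway, and several stress response mRNAs, Atf4 among them, are known to be sensitive to NMD in mammalian cells.

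For each cluster the authors deposited a log2 fold (immunoprecipitate relative to input) with its −log10 p. Clusters were called enriched where both values reached 3 or more. The reads behind each positive fold were reconstructed as whole numbers, and each fold is given with an exact 95% Clopper-Pearson interval from those reads, which covers counting error only. Counts below 1 were not tried, so an input given here as 1 read could have been 0.

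UPF1 was enriched on the transcripts of 3 of the 8 genes with a cluster: Ppp1r15b, Atf5 and Atf4. This is 37.5% (Wilson 95% interval 13.7 to 69.4), beside 33.7% of all genes with a cluster, so the share of these genes lies near that of genes at large. The median over the 8 genes of the highest log2 fold was 2.77, and over all genes it was 2.56. Of the 45 clusters, 12 were enriched (26.7%, interval 16.0 to 41.0), beside 11.6% of all clusters on the strand of a locus. A narrower set kept only genes whose locus length lay in a limited range. It held 3622 of the 9846 genes with a cluster, so most genes were left out. Of the stress response genes described, its length range excludes only Slc7a11. In that set 3975 of 16932 clusters were enriched, and 29.5% of genes had an enriched cluster. This share of clusters lies inside the interval above, but that interval still counts the 15 clusters of Slc7a11, none of them enriched. The sets are thus unlike, and whether the excess over 11.6% goes with locus length was not tested. That excess rested on 1 gene, since 7 of the 12 lay in Ppp1r15b. Without that gene 5 of 37 were enriched (13.5%, interval 5.91 to 28.0). With a fold threshold of 2, Slc7a11 was also called, giving 4 of 8 genes beside 35.9% of all. With clusters of 1 input read left uncalled, Atf5 was lost, and 2 of 8 genes and 3 of 45 clusters were called beside 21.5% of all genes and 5.8% of all clusters. The Wilson intervals treat clusters as independent, which clusters of 1 mRNA are not. In whole-culture lysate, fewer cells expressing a gene and less of its RNA per cell cannot be told apart, and either lowers the reads a cluster can hold.

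**Figure D1:**
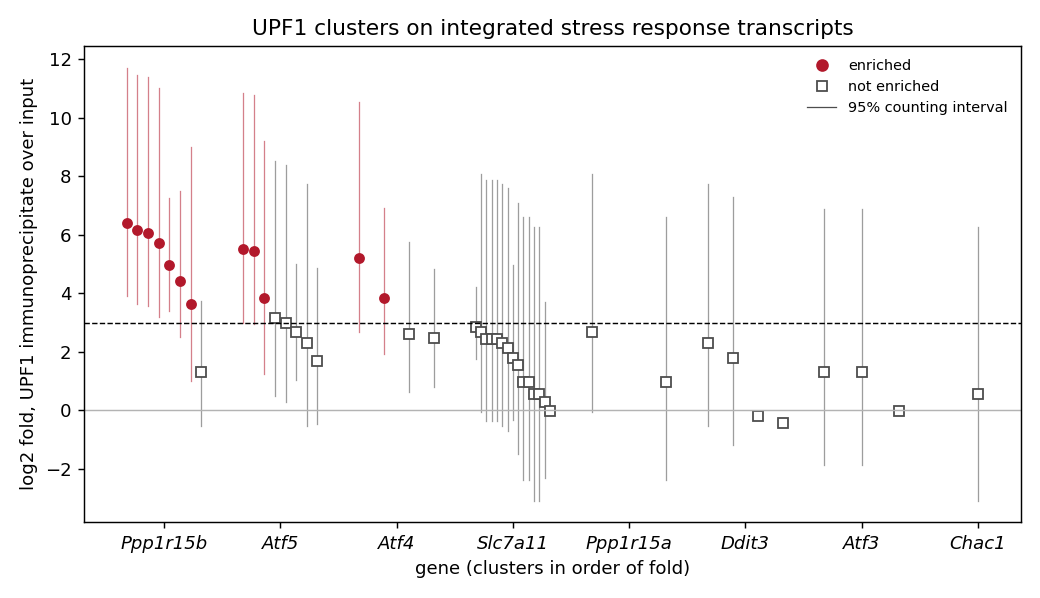
Each point is 1 of the 45 clusters, with its deposited log2 fold on the vertical axis and its gene on the horizontal axis; filled circles are enriched, open squares are not, lines are 95% counting intervals and the dashed line marks a log2 fold of 3. Clusters with a fold below 0 have no interval. All 12 enriched clusters belong to Ppp1r15b, Atf5 and Atf4.

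The eIF2 alpha phosphatase subunits held the highest fold, in Ppp1r15b, while Ppp1r15a had only 2 clusters. PPP1R15B, also called CReP, is the constitutive regulatory subunit that brings protein phosphatase 1 to eIF2 alpha. Its gene lies on chromosome 1 from 133131166 to 133139800, and all 8 of its clusters lay on the plus strand, with 7 enriched. The highest stood at 133137128 to 133137169, where 171 immunoprecipitate reads against 1 input read gave a log2 fold of 6.39 (interval 3.90 to 11.71). It formed a continuous stretch with a cluster on either side, with folds of 6.07 (137 reads against 1) and 6.15 (144 reads against 1). Touching clusters can share reads, so the 3 are not separate measurements.

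Downstream of that stretch the clusters of Ppp1r15b were also called enriched, except the one nearest the 3′ end. The next clusters had log2 folds of 4.42 (87 reads against 2), 4.98 (192 reads against 3, interval 3.41 to 7.27), 5.70 (106 reads against 1) and 3.62 (25 reads against 1). The last of these only just passed, with a −log10 p of 3.23. The cluster nearest the 3′ end, 252 nt from it, had a fold of 1.30 (15 reads against 3, interval -0.52 to 3.73) and was not enriched. Its interval overlaps that of the enriched cluster before it (1.01 to 8.98), so a drop from that cluster is not resolved. Among the enriched clusters of the gene, only the highest, picked for its fold, has an interval wholly above it (3.90 to 11.71). The intervals of the others overlap it. Enriched clusters covered 416 of the 457 nt in clusters. Of all genes with a cluster, 98.3% had a lower highest fold than Ppp1r15b, and so did 98.6% of the 441 genes that also had 8 clusters.

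PPP1R15A, also called GADD34, is the stress-induced counterpart of PPP1R15B, made from an ATF4 target gene. Its gene (chromosome 7, 45522917 to 45526268, minus strand) had 2 clusters, with log2 folds of 2.68 (13 reads against 1, interval -0.06 to 8.09) and 0.98 (4 reads against 1). Neither was enriched. The interval of its higher fold overlaps that of the highest cluster of Ppp1r15b, so a difference between these clusters is not resolved.

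Among the transcription factors, Atf4 and Atf5 were enriched and Ddit3 and Atf3 were not. ATF4 is the central activator of the response, and its gene (chromosome 15, 80255184 to 80257545, plus strand) is the shortest of the 10 at 2362 nt. From 5′ to 3′ its 4 clusters had log2 folds of 2.62 (25 reads against 2), 3.83 (58 against 2), 5.20 (75 against 1) and 2.48 (34 against 3). The middle pair was enriched and the outer pair was not. The highest fold had an interval of 2.68 to 10.53, and its cluster, 80257075 to 80257167, lay 424 nt from the 3′ end. No cluster lay in the first 1000 nt of the locus, and the most 5′ one had its midpoint 1283 nt from the start. The highest fold of Atf4 exceeded that of 97.1% of the 793 genes with 4 clusters, of which 20.1% had an enriched cluster.

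ATF5, a close relative of ATF4 whose mRNA is also under the control of upstream open reading frames, had its highest folds away from the 3′ end. Its gene (chromosome 7, 44812256 to 44816658, minus strand) held 8 clusters, 3 of them enriched. The highest pair was a touching stretch from 44814987 to 44815086, with log2 folds of 5.51 (93 reads against 1, interval 3.0 to 10.83) and 5.45 (89 reads against 1, interval 2.94 to 10.77). This stretch lay 2796 and 2746 nt from the 3′ end by the midpoints of its clusters. RefSeq gives Atf5 a start at 44816658 and another at 44815658, and the more 5′ cluster of the pair lay 606.5 nt downstream of the second.

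The other 6 clusters of Atf5 lay between 100.5 and 1261 nt from its 3′ end and had lower folds. Their log2 folds, from 5′ to 3′, were 3.15 (18 reads against 1), 2.30 (10 against 1), 2.98 (16 against 1), 3.83 (29 against 1), 1.68 (13 against 2) and 2.68 (39 against 3). Only the fourth of them was enriched, with a −log10 p of 3.87. The first passed the fold but had a −log10 p of 2.16. Each of the 6 intervals overlaps those of the highest pair (1.24 to 9.19 for the fourth), so the order in fold is not resolved. Atf5 overlaps the loci Nup62 and Il4i1b at its 5′ end, and no cluster lay in the shared part.

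DDIT3, known as CHOP, promotes cell death when stress persists. Its gene (chromosome 10, 127290793 to 127296291, plus strand) had 4 clusters, spread along the locus. Those 131 nt from the start and in the middle had folds below 0, at -0.44 and -0.18, while those 426 and 147 nt from the 3′ end had folds of 2.30 (10 reads against 1, interval -0.52 to 7.74) and 1.78 (7 reads against 1, interval -1.18 to 7.28). The fold was thus higher near the 3′ end, though both intervals there include 0. Its highest fold stood near the middle of genes with 4 clusters, of which 50.9% were lower.

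ATF3, a stress-induced member of the same family of transcription factors, had 3 clusters in its gene (chromosome 1, 191170296 to 191183333, minus strand). Their folds were -0.02, 1.30 and 1.30, with 5 reads against 1 in each of the latter pair (interval -1.86 to 6.86). All 3 lay 4709.5 nt or more from the 3′ end, so no cluster marked the 3′ end of Atf3. TRIB3, a pseudokinase induced by ATF4 and CHOP, had no cluster in its locus (chromosome 2, 152337425 to 152344060).

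Among the genes for amino acids and glutathione, none had an enriched cluster. SLC7A11, the light chain of the cystine-glutamate exchanger, had the most clusters of the 10 genes, 15, in the longest locus (chromosome 3, 50364936 to 50499087, minus strand, 134152 nt). None of the 15 was enriched. Clusters of the same mRNA are not independent, so no upper limit on the enriched share was drawn from this. Its highest cluster, 50371637 to 50371767, had 103 reads against 7 and a −log10 p of 8.26, and its log2 fold was 2.85 (interval 1.76 to 4.21). The p therefore passed easily and the fold fell just short, with the threshold of 3 inside its interval.

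The clusters of Slc7a11 fell into a band near the 3′ end and 3 isolated ones upstream. The band of 12 spanned 1315 to 6766 nt from the end, with folds from 0.30 to 2.85, and its highest fold was its most 5′ one. The 3 isolated clusters lay 40884 nt or more from the end, with folds of 0.56, 0.98 and -0.02. Of the 158 genes with 15 clusters, 59.5% had an enriched one, and 30.4% had a lower highest fold than Slc7a11.

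CHAC1, which degrades glutathione, had a single cluster in its gene (chromosome 2, 119351242 to 119354326, plus strand), 484 nt from the 3′ end. Its fold was 0.56, from 3 reads against 1 (interval -3.08 to 6.27). ASNS, asparagine synthetase, had no cluster in its locus (chromosome 6, 7675165 to 7693209). For Asns and Trib3 the list carries no measurement: a transcript at a low level and one that UPF1 does not bind give the same empty result.

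The number of reads a call requires was set beside the reads these clusters held. With 1 input read, a cluster needs at least 24 immunoprecipitate reads to pass both thresholds, and with 2 it needs 33. Of the 45 clusters, 16 held 24 reads or more, all of them in Ppp1r15b, Atf5, Atf4 and Slc7a11, and 12 of these 16 were enriched, which the read requirement itself favours. Ppp1r15a, Ddit3, Atf3 and Chac1 had at most 13, 10, 5 and 3 reads in any cluster with a fold above 0. Few immunoprecipitate reads arise from weak binding as well as from little RNA, and these cannot be told apart here.

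**Figure D2:**
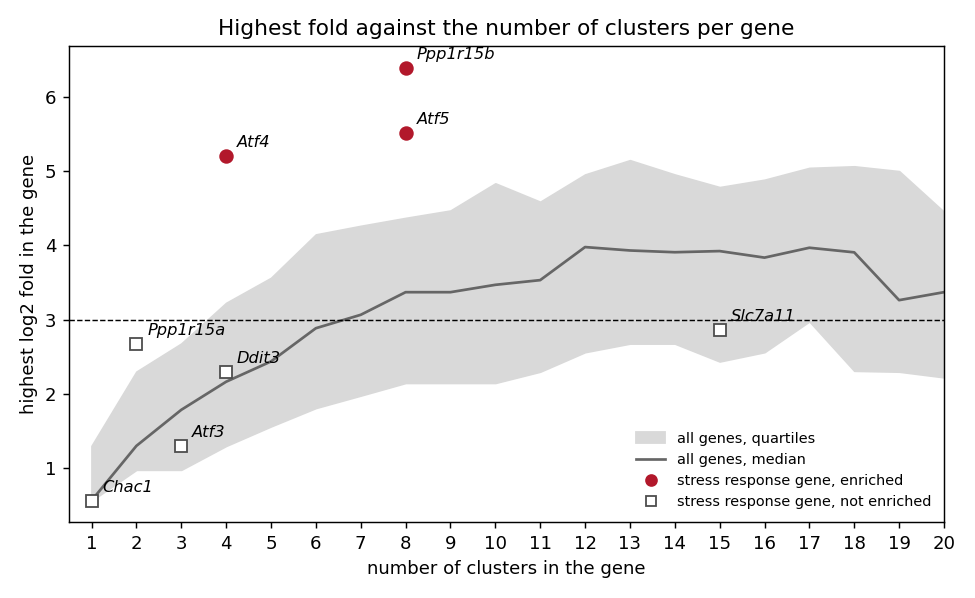
The horizontal axis is the number of clusters in a gene and the vertical axis its highest log2 fold; the line is the median and the band the quartiles of all genes with that number of clusters. Ppp1r15b, Atf5 and Atf4 lie above the upper quartile, as does Ppp1r15a without being enriched, and Slc7a11 lies below the median of 3.92 for genes with 15 clusters.

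Position along the gene was examined as the genomic distance from the midpoint of a cluster to the 3′ end of the locus, introns included. Of the 45 clusters, 35 lay within 5000 nt of the end (77.8%, Wilson interval 63.7 to 87.5), beside 31.2% of all clusters. Several of the 10 loci are shorter than 5000 nt, so part of this share is fixed by their length. All 12 enriched clusters lay within 5000 nt, between 424 and 2796 nt from the end, with a median of 2359 nt. Among all enriched clusters 91.4% lay within 5000 nt and the median distance was 1361 nt.

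In the 3 enriched genes the cluster nearest the 3′ end was not enriched. These clusters lay 100 nt from the end in Atf4, 100.5 nt in Atf5 and 252 nt in Ppp1r15b, and each had 3 input reads where the highest cluster of its gene had 1. Their folds of 2.48, 2.68 and 1.30 compare with the highest folds of 5.20, 5.51 and 6.39. Over all 3300 genes with an enriched cluster and at least 2 clusters, the cluster nearest the end was enriched in 47.1%, and in 51.1% where it lay within 300 nt of the end. With 3 genes, 0 of 3 cannot be set apart from those shares. No cluster lay on the opposite strand of any of the 10 loci, though the strand of Ppp1r15b was set from its own clusters and Asns and Trib3 had none. None lay within 1000 nt outside the loci, and none of the 45 touched another annotated locus.

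**Figure D3:**
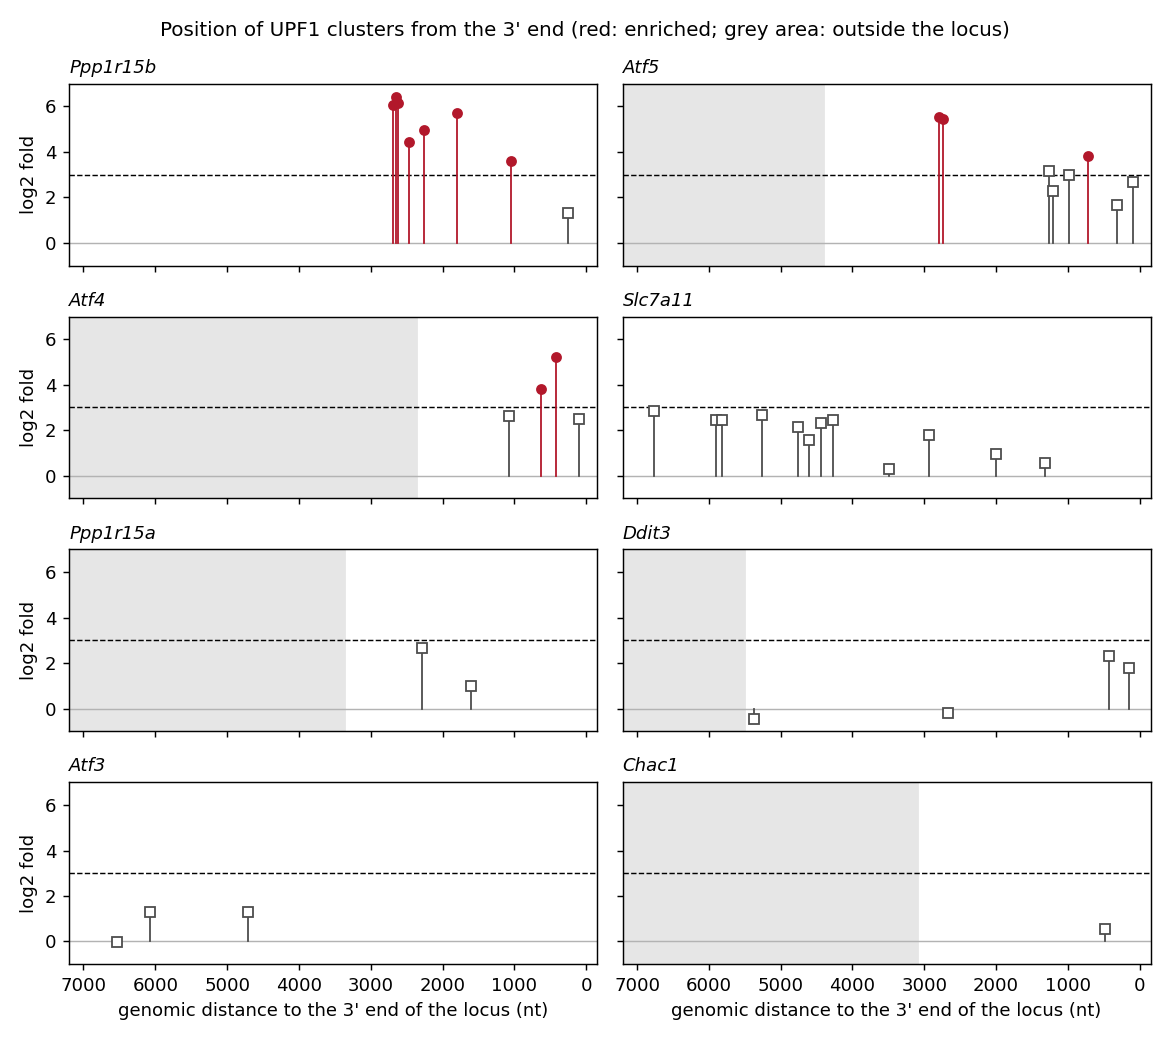
Each panel is 1 gene, with the genomic distance to the 3′ end of the locus in nt on the horizontal axis (3′ end at the right) and the log2 fold on the vertical axis; red circles are enriched clusters, open squares are not, and grey marks positions outside the locus. The 3 clusters of Slc7a11 beyond 7000 nt are not drawn. In Atf5 the highest pair stands apart, 2796 and 2746 nt from the end.

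The wider pathway was covered by 63 further genes, from the kinases to the targets of ATF4. Of these, 47 had a cluster and 21 had an enriched one (44.7%, Wilson interval 31.4 to 58.8), beside 33.7% of all genes with a cluster. The median highest log2 fold was 3.30, against 2.56 over all genes. The share of all genes lies inside the interval, and 13 of the 47 were called with clusters of 1 input read left uncalled, beside 21.5% of all genes.

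Of the kinases that phosphorylate eIF2 alpha, 2 of 4 were enriched, beside 33.7% of all genes with a cluster. Eif2ak1, the heme-regulated kinase, reached 4.06 (34 reads against 1, interval 1.49 to 9.41), and Eif2ak2, the kinase PKR that senses double-stranded RNA, reached 3.56 (24 reads against 1, interval 0.94 to 8.92). Eif2ak3, the kinase PERK of the endoplasmic reticulum, and Eif2ak4, the kinase GCN2 that senses amino acid shortage, each had 4 clusters with a highest fold of 0.98 (4 reads against 1, interval -2.36 to 6.60). The intervals of all 4 overlap, so no order among the kinases is resolved, and neither call held with clusters of 1 input read left uncalled or with a −log10 p threshold of 5.

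Of the 6 amino acid transporters with a cluster, 5 were enriched (83.3%, interval 43.6 to 97.0, beside 33.7% of all genes). The 33.7% lies below this interval, but the transporters are 1 of several roles looked at. Their interval overlaps those of the other roles. Slc3a2, the heavy chain that pairs with SLC7A5 and SLC7A11, was not enriched, with a highest fold of 0.56. Slc7a3 and Slc1a5 had no cluster. The call of Slc7a1 was lost with clusters of 1 input read left uncalled. Slc7a5, the large neutral amino acid transporter LAT1, had 18 of 19 clusters enriched and reached 7.77 (445 reads against 1, interval 5.29 to 13.08). Slc6a9, a glycine transporter, reached 7.45 (1068 reads against 3, interval 5.90 to 9.73), and Slc1a4, a transporter of neutral amino acids, 6.63 (202 reads against 1, interval 4.14 to 11.94). Slc7a11 differs from these in its call, and its interval of 1.76 to 4.21 lies below those of Slc7a5 and Slc6a9 while it overlaps that of Slc1a4.

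Among amino acid synthesis genes 3 of 7 were enriched, led by Gpt2, a mitochondrial alanine transaminase, at 7.81 (455 reads against 1, interval 5.32 to 13.11). Among aminoacyl-tRNA synthetases 4 of 11 were, with a median highest fold of 0.98. Among other targets 3 of 8 were. The 33.7% of all genes with a cluster lies inside the Wilson interval of each of these roles. Ddit4, a stress-induced inhibitor of mTORC1, had all 6 clusters enriched and reached 6.17 (293 reads against 2, interval 4.30 to 9.22). The locus of Ddit4 is 2096 nt long, shorter than that of Atf4.

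Of the initiation factor subunits 1 of 5 was enriched, and Eif2s1, which encodes eIF2 alpha itself, had 8 clusters and reached 3.37 (21 reads against 1) without passing the p threshold. Of the regulators of GCN2, 2 of 3 were. Of the partners and regulators of ATF4 1 of 3 was, Fbxw11, a ubiquitin ligase subunit, at 7.85 (468 reads against 1, interval 5.36 to 13.15). Its paralog Btrc, which targets ATF4 for degradation, had 23 clusters and reached 3.44 (22 reads against 1, interval 0.81 to 8.80) with a −log10 p of 2.79, below the threshold. Cebpg, a dimer partner of ATF4, had 7 clusters and reached 1.98, and Jdp2, a repressor related to ATF3, had 9 and reached 1.78. For the subunits, the GCN2 regulators and the ATF4 partners, too, the Wilson interval includes the 33.7% of all genes with a cluster.

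**Figure D4:**
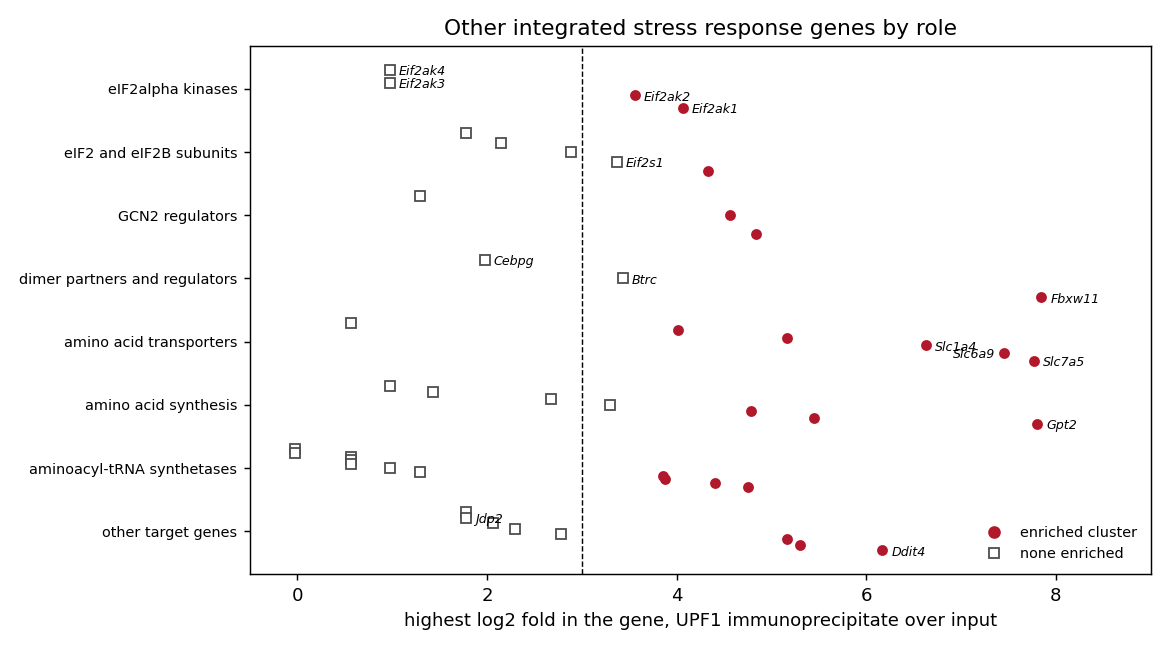
Each point is the highest log2 fold of 1 of the 47 further pathway genes with a cluster, by role; filled circles have an enriched cluster, open squares do not, and the dashed line marks a log2 fold of 3. The aminoacyl-tRNA synthetases include the lowest folds, and Fbxw11, Gpt2 and Slc7a5 the highest.

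The labelled cell type was set beside marker genes by the clusters they held. Of 13 neural progenitor genes 11 had a cluster, of 10 astrocyte and oligodendrocyte genes 8 did and of 6 neuronal genes 4 did. None of 12 genes of microglia, vessels, fibroblasts and blood did. An empty locus does not measure expression, since little RNA and no UPF1 binding give the same result, so the absence of these cells was not tested. No cluster lay in the progenitor genes Hes1 and Prom1, the glial genes Aqp4 and Mbp or the neuronal genes Tubb3 and Snap25. Of those with a cluster, 7 of 11 progenitor, 8 of 8 astrocyte and oligodendrocyte and 2 of 4 neuronal genes had an enriched one, beside 33.7% of all genes. The part of any of these cell types in the binding of the stress response transcripts was not tested.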

How the data were processed

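Per the submitters' processing notes, the data were processed with UMI-tools, cutadapt and STAR on mm10. Not given in the sources used here are the cluster caller, the fold formula and any filters. The deposited file has no header; from its values, the authors deposited a log2 fold of immunoprecipitate over input and a −log10 p, capped at 400, for each of 123349 clusters. The −log10 p is 0 in all 32999 clusters that have no positive fold, so depletion has no test. Library totals are unknown.

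Clusters overlapping a RefSeq GRCm38.p6 locus by at least 1 base were kept on its strand. The strand came from the RefSeq promoter table (9 of the 10 genes), or, as for Ppp1r15b, from at least 80% of 2 or more clusters in no other locus. Where both were known, 99.7% of 6690 loci had the same strand. Exons and introns were not distinguished.

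Reads were reconstructed by taking the commonest fold as 3 reads against 1, which made the immunoprecipitate 2.03 times the input. Of 400 sampled combinations of both columns, 98.5% then matched whole counts (p within 0.05 or 1%, exact binomial below 5 reads, otherwise chi-square with continuity correction), against at most 14.8% for the other scales. This recovered 90006 of 90350 positive folds, and 41 of the 45 clusters described. The script was tested on simulated data. Reads are not independent molecules beyond what unique identifiers remove.

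The genes and lists were chosen with earlier results of these data known. All 10 genes are named, with the 4 kinases, the 6 further pathway genes of highest fold and the 4 with the most clusters and none enriched. Python 3.11.15, SciPy 1.17.1 and pandas 2.3.3 were used.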

Additional observations from a re-analysis of the deposited data

How the results depend on the processing

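Ppp1r15b and Atf4 had an enriched cluster under each alternative run, and Atf5 under all but 1. With clusters of input count 1 left uncalled, 2 of the 10 genes, 3 of their clusters (12 otherwise) and 13 further pathway genes (21 otherwise) were called, and Atf5 was lost. That setting removes the clusters with the fewest input reads, and 9 of the 12 enriched clusters had an input count of 1. With a fold threshold of 2, Slc7a11 was also called. Merging touching clusters, chosen after seeing the data, gave 9 enriched stretches of 42. No share over all genes is given for merged stretches, so this count has no comparison. The median highest fold of 2.77 became 2.03 with the length-weighted mean fold of each gene, and 2.85 with strands from clusters, which drops Chac1 with its single cluster. Within 2000 nt of the 3′ end lay 40.0% of the clusters. Whole clusters inside the locus, or clusters in no other locus, changed none of the 22 highest folds. No paired analysis was possible because each group has 1 library, and no replicate could be left out. With 1 input read a call needs 24 immunoprecipitate reads, and 29 of the 45 clusters held fewer than 24 reconstructed reads or had none reconstructed.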
